A study of Mus musculus with 4 samples.

Results

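Genes of voltage-gated and potassium channel subunits were followed in hearts of mouse embryos with a conditional knockout of Salvador (Sav1), a scaffold of the Hippo kinase cascade. Members were taken by symbol from the platform's probe-gene table, as every gene with a single symbol that begins with Kcn, Cacn or Scn followed by a number and a or b, or that names an HCN channel. This gave 114 genes, measured by 152 probes, of the 16675 genes on the arrays. The rule used names alone and no measured value, but it was chosen with earlier results of these data known.

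Whole hearts of embryonic day 9.5 were pooled, and 4 pools were hybridised to single-colour Cy5 arrays. Of these, 2 were control pools, labelled wild-type, and 2 were Salv CKO pools, hearts with a conditional knockout of Salvador. All were of a C57bl/6 x129 hybrid strain. The labels name no driver for the deletion, no number of hearts per pool and no litters, so p-values measure the spread between pools only.

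Cardiac beating rests on channels that open and close with membrane voltage. Sodium and calcium channels carry the inward current of the action potential, several potassium channels carry the outward current that ends it, and HCN channels carry the pacemaker current. Most channels are built from a large pore-forming subunit and smaller accessory subunits that set its gating and its delivery to the membrane. The embryonic heart tube already beats at this stage, while its conduction system is still forming.

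The arrays carried 29922 probes, with median deposited intensities of 77.5 and 101 in the controls and 71.1 and 76.1 in Salv CKO. After quantile normalisation, log2 intensities correlated at 0.946 and 0.947 within the groups and at 0.937 to 0.942 across them. Sav1 itself read log2 9.56 and 9.30 in the controls and 9.19 and 9.13 in Salv CKO, a difference of -0.27 ± 0.13 (limma adjusted p = 0.267). It did not pass the test, and since no label says where the probe lies relative to the deleted part, it does not check the labels. The heart markers were well above background: of 11 heart muscle genes measured, all 11 exceeded an intensity of 16 on every array. That limit (log2 4) is about 3 times the noise read from values below 0, and a probe under it counts here as not above background.

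In Salv CKO, 7 channel genes fell and 3 rose, and 104 did not pass the test. The fallen genes were the calcium channel pores Cacna1h and Cacna1c, the calcium channel accessory genes Cacna2d2 and Cacng6, the repolarising potassium channels Kcnq1 and Kcnh2, and Kcne1, the accessory subunit of Kcnq1. The risen genes were the potassium channel Kcnh1, the potassium channel beta subunit Kcnab1 and the calcium channel gamma subunit Cacng4. Differences ranged from a 2.60-fold fall for Cacna1h to a 2.29-fold rise for Cacng4, with n = 2 pools per group. The share of channel genes called was 8.77%, against a background of 10.6% of all genes, so their share lay near the background. Fallen genes were 5.70% and risen genes 4.92% of all genes tested. Calls are at a limma adjusted p under 0.05 over all 16675 genes. The smallest p that an exact two-sided permutation of 2 against 2 pools allows is 0.333, so each call depends on limma's pooling of the spread over genes. Leaving out any 1 array left no gene on the arrays called.

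In pooled whole hearts, fewer cells of a type and less RNA per cell cannot be told apart. Markers of other cell types differed between the same pools, and their summed intensities, which weigh the brightest probes most, are given as a range per group. Of the heart muscle genes, 5 of 11 fell and 0 rose, and their sum was 389340 to 428999 in controls and 343587 to 346668 in Salv CKO. Myh6, Myl4, Myl2 and Actc1 lay within 1% of the highest value of at least 1 array, where a level is only a lower bound, and the other 7 genes summed to 149073 to 185145 and 123828 to 126209. Of 12 neural genes, 3 rose and 0 fell, with sums of 2453 to 2906 in controls and 6169 to 6302 in Salv CKO. Neural crest genes gave 4 of 9 that rose, with sums of 14349 to 14613 and 49741 to 49828, of which Crabp1 alone made up 92.4% to 95.2%. Without it the sums were 1087 to 1095 and 2407 to 2494. Endothelial genes gave 5 of 9 that fell and 1 that rose, with sums of 23719 to 24545 and 14187 to 14653. Red cell genes gave 3 of 7 that fell, with sums of 105081 to 107119 and 86438 to 86551. Hba-x, near the highest value of the arrays, made up 57.7% to 73.2% of these, and without it they were 41800 to 45322 and 23165 to 25371. Somite genes gave 3 of 7 that rose, with sums of 577 to 601 and 3703 to 3755, and without Tcf15, the brightest, 213 to 244 and 686 to 704. No channel gene lay within 1% of the highest value on any array. No listed marker was at the floor on all 4 arrays. The part of these cell types in the channel results was not tested.

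Cacna1h, the pore of a T-type calcium channel that opens at low voltage, had the largest difference among the called channel genes. It read log2 12.01 and 12.15 in the controls and 10.62 and 10.78 in Salv CKO. Both Salv CKO pools lay far below both controls, and the gap was several times the spread within either group. The fall was 1.38 ± 0.10 on the log2 scale (limma adjusted p = 0.00717). Cacna1g, the other T-type pore on the arrays, was close to the background limit, at 5.21 and 4.12 in the controls and 5.06 and 4.34 in Salv CKO. Its groups overlapped, with a difference of 0.04 ± 0.58 (limma adjusted p = 0.979).

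Cacna1c, the pore of the main L-type calcium channel of heart muscle, read 9.96 and 9.72 in the controls and 8.94 and 8.70 in Salv CKO. The groups did not overlap, and it fell by 1.02 ± 0.14 on the log2 scale (limma adjusted p = 0.0195). That value comes from its brightest probe, mMR028426. The other probes of the gene lay just above background, between 4.41 and 5.25, and gave 0.59 ± 0.41 and -0.29 ± 0.48 with no call. Cacna1d, an L-type pore of pacemaker cells, was near the limit on all arrays, from 4.12 to 4.46, with a difference of 0.02 ± 0.46 (limma adjusted p = 0.988). Of the 9 calcium channel pores, 2 fell and 0 rose (22.2% called, beside 10.6% of all genes). Cacna1a, the P/Q-type pore of nerve endings, read 5.21 and 4.93 in the controls and 6.30 and 6.16 in Salv CKO. Its groups did not overlap, but the difference in means of 1.16 ± 0.32 did not pass (limma adjusted p = 0.0898).

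Among the 14 accessory genes of calcium channels, 2 fell and 1 rose (21.4% called, beside 10.6% of all genes). Cacna2d2, an alpha-2-delta subunit that brings pores to the membrane, read 10.61 and 10.59 in the controls and 9.78 and 10.09 in Salv CKO. It fell by 0.67 ± 0.13 on the log2 scale (limma adjusted p = 0.0394), and its other probe gave -0.37 ± 0.40 with overlapping groups. Of its relatives, Cacna2d3 was at -0.26 ± 0.11 (limma adjusted p = 0.233) and Cacna2d1 at 0.24 ± 0.29 (limma adjusted p = 0.669). Cacnb2, the main beta subunit of the cardiac L-type channel, read 8.89 and 9.11 in the controls and 9.06 and 9.26 in Salv CKO. Its groups overlapped, at 0.16 ± 0.14 (limma adjusted p = 0.537), in the same pools in which the Cacna1c pore fell.

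The gamma subunits included a gene called in each direction. Cacng6, a gamma subunit of muscle calcium channels, read 9.84 and 9.70 in the controls and 8.91 and 8.93 in Salv CKO, a fall of 0.85 ± 0.11 on the log2 scale (limma adjusted p = 0.0157). Its other probe, mMR029938, was bright as well and ran the other way, at 8.64 and 8.73 in the controls and 9.09 and 9.28 in Salv CKO. That probe gave 0.50 ± 0.12 and did not pass (limma adjusted p = 0.0760 in a fit of all named probes), so the direction of Cacng6 depends on the probe. Cacng4, a gamma subunit better known for escorting AMPA-type glutamate receptors in neurons, read 6.58 and 6.54 in the controls and 7.83 and 7.68 in Salv CKO. It rose by 1.19 ± 0.19 on the log2 scale (limma adjusted p = 0.0251) on its only probe.

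Kcnq1 and Kcne1 encode the pore and the accessory subunit of the slow delayed rectifier, a potassium channel that helps to end the cardiac action potential, and both fell. Kcnq1 read 9.40 and 9.36 in the controls and 8.34 and 8.35 in Salv CKO, with pools of a group within 0.05 of each other. The fall was 1.04 ± 0.11 on the log2 scale (limma adjusted p = 0.0117), while its other probe, at 7.96 to 8.33, gave -0.13 ± 0.17 and overlapping groups. Kcne1 read 10.26 and 10.24 in the controls and 9.28 and 9.39 in Salv CKO, a fall of 0.91 ± 0.09 on the log2 scale (limma adjusted p = 0.0116). A further probe of Kcne1, mMC021769, read 7.31 and 7.38 against 6.26 and 6.21 and was called too, at -1.11 ± 0.20 (limma adjusted p = 0.0383 in the fit of all named probes). Its remaining probe was above background on 1 array alone and gave 0.46 ± 0.74. Kcne1 was thus the only called channel gene with a second probe past the test in the same direction. Cacna1h, Kcnh2, Kcnh1, Kcnab1 and Cacng4 had 1 probe each and could not be compared in this way.

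Kcnh2, the pore of the rapid delayed rectifier, read 10.85 and 10.84 in the controls and 9.94 and 10.15 in Salv CKO. It fell by 0.80 ± 0.10 on the log2 scale (limma adjusted p = 0.0168), with the Salv CKO pools further apart than the controls. Its relative Kcnh1, a channel of the same ether-a-go-go family best known from brain and from dividing cells, moved the opposite way. Kcnh1 had normalised intensities of 190.4 and 237 in the controls and 439 and 512 in Salv CKO, a rise of 1.16 ± 0.17 on the log2 scale (limma adjusted p = 0.0228). Kcnab1, a cytoplasmic beta subunit of voltage-gated potassium channels, read 8.94 and 9.02 in the controls and 9.84 and 9.59 in Salv CKO. It rose by 0.73 ± 0.13 on the log2 scale (limma adjusted p = 0.0311). Kcnab2, another beta subunit, was lower in both Salv CKO pools, at 4.04 and 4.44 against 5.43 and 5.86, and did not pass (-1.41 ± 0.42, limma adjusted p = 0.108).

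**Figure D1:**
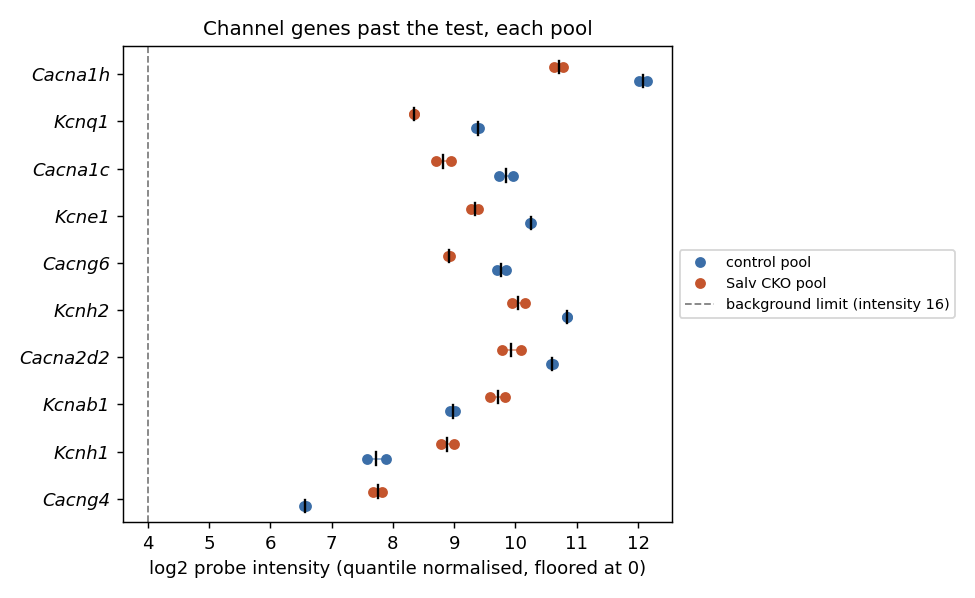
Log2 probe intensity of the 10 channel genes past the test; each point is a pool, blue for control and orange for Salv CKO (n = 2 each), black ticks are group means and the dashed line is the background limit of 16. The 7 genes at the top were lower in both Salv CKO pools, the 3 at the bottom higher, and every point lies above the limit.

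**Figure D2:**
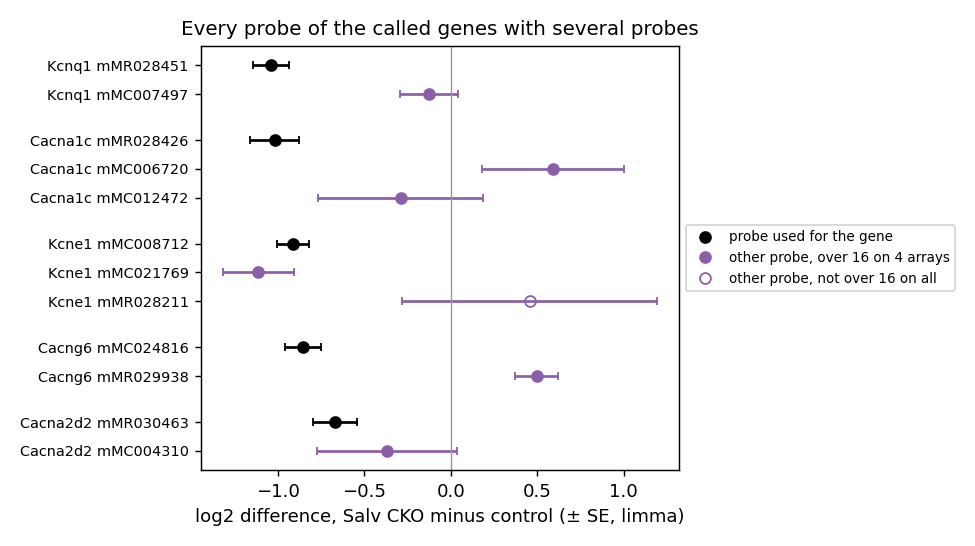
Log2 difference (Salv CKO minus control) with limma's standard error for every probe of the called genes that had several; black is the probe used, purple the others, and open symbols were not over 16 on all arrays. The second probe of Kcne1 (-1.11) lies beside the first (-0.91), while Cacng6 has a probe at 0.50 against -0.85.

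Probes of a gene often differed in this way. Of 15 channel genes with at least 2 probes above background on all 4 arrays, 9 had probes of opposite sign, with a median range of 0.64 (log2). Over all genes, 932 of 2139 such genes (43.6%) did, with a median range of 0.44. No table used here gives the probes' places within the transcripts.

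The upstream sequences of 4 called genes with a single start in the promoter table are shown because they cover both directions: Kcnh2 and Kcnh1 are relatives that moved oppositely, and Cacna2d2 and Cacng6 were those of the 6 called genes in the table with a Tead-type motif, the letters bound by the Tead factors on which the Hippo pathway acts through Yap. Each is the 250 bases before the start, 5′ to 3′, from RefSeq on GRCm38.p6, with motif matches in capitals.
Kcnh2 (chr5:24329592-24329841, - strand): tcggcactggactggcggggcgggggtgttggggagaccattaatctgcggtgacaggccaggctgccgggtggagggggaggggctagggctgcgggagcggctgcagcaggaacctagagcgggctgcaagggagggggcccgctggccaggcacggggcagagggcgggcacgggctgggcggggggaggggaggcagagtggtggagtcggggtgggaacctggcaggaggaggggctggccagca
Kcnh1 (chr1:192190527-192190776, + strand): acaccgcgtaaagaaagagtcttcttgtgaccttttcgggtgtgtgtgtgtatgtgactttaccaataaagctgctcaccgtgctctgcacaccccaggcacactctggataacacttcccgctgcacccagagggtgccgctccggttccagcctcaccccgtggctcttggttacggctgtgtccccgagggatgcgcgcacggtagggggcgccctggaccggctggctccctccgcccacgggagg
Cacna2d2 (chr9:107399630-107399879, + strand): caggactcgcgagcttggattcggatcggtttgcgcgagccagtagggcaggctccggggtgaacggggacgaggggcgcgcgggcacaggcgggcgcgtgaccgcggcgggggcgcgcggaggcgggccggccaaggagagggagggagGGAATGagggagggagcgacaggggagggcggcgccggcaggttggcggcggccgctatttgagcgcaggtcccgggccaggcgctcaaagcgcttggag
Cacng6 (chr7:3424412-3424661, + strand): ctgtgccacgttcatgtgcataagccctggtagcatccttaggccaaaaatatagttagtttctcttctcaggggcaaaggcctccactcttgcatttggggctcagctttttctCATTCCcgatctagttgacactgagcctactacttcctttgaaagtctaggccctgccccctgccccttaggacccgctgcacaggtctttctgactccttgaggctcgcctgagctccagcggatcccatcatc

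Searched on both strands, the Tead-type letters were CATTCC, the GATA-type letters were AGATAA or TGATAA with either A or G as the last letter, and the Nkx2-5-type letters were TNAAGTG. The Tead-type motif began 100 bases before the start in Cacna2d2 and 135 bases before it in Cacng6, where a second probe ran the other way. Cacna2d2 and Cacng6 were picked for holding these letters, so finding them there is no result. No letters of these motifs were found in the Kcnh2 and Kcnh1 windows, and no matches overlapped. The other called genes in the promoter table, Kcnab1 and Cacna1c, have several starts and are not shown. Their windows held GATA-type letters, 129 bases before a start of Kcnab1 and 243 and 92 bases before starts of Cacna1c. Of all 32851 windows of this length, 12.6% held the Tead-type, 26.5% the GATA-type and 10.1% the Nkx2-5-type letters. Of the 125 windows of 89 channel genes in the table, 17.6%, 18.4% and 8.0% did. The Kcnh2 and Cacna2d2 windows were rich in G and C, at 73.6% and 74.4%, against 62.0% for Kcnh1, 52.8% for Cacng6 and a median of 52.4% over all windows. A match of letters describes the sequence and is not evidence of binding.

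By class, calls lay among calcium channel and voltage-gated potassium channel genes. Of 23 calcium channel genes, 4 fell and 1 rose (21.7%), and of 77 potassium channel genes, 3 fell and 2 rose (6.49%), beside 10.6% of all genes. Of the 29 voltage-gated potassium pores, 2 fell and 1 rose, and of the 13 accessory and regulatory genes 1 fell and 1 rose. No call was made among the 14 inward rectifiers, 11 tandem-pore channels, 10 genes of the Slo and small-conductance families, 11 sodium channel genes or 3 HCN genes. At an unadjusted limma p under 0.05 these classes held 3, 0, 2, 3 and 1 genes, and all channel genes 26 (22.8%), beside 26.7% of all genes. Whether calls differed between classes was not tested.

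**Figure D3:**
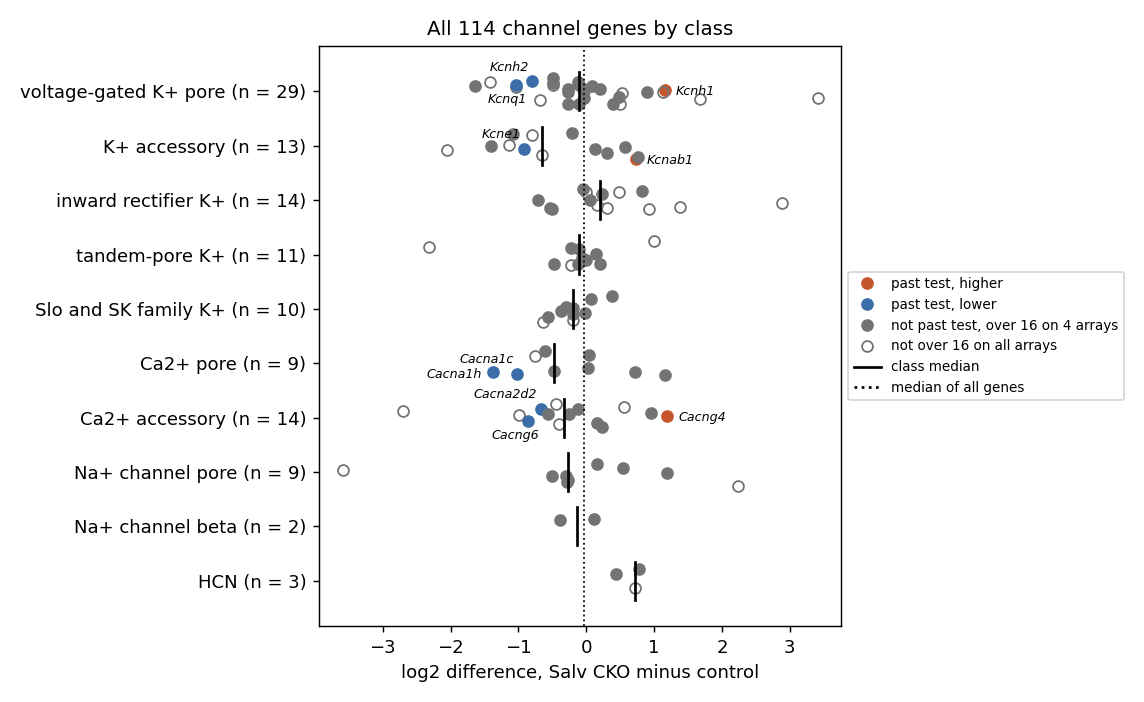
Log2 difference (Salv CKO minus control) of all 114 channel genes by class, a point per gene with small vertical scatter for visibility; open points were not over 16 on all arrays, bars are medians over all members of a class, dim ones included, and the dotted line is the median of all genes (-0.04). The 10 called genes are named and lie in 4 of the classes, and the widest differences belong to open points, near or below background.

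The median difference over the 114 genes was -0.11, beside -0.04 over all genes, and over the 79 above background on all arrays it was -0.10, beside -0.04. Class medians rest partly on dim genes. The 13 potassium channel accessory genes had a median of -0.65, but the 9 of them above background on all arrays had one of 0.14, of the opposite sign. The median of 0.72 of the 3 HCN genes is the value of Hcn4, which was not above background on any array, and the other two had a median of 0.61. Groups did not overlap for 56 of the 114 (49.1%), 25 higher and 31 lower in Salv CKO, beside 54.2% of all genes, of which 25.2% were higher and 29.0% lower. Of the channel genes, 79 were above background on all 4 arrays, 19 on some and 16 on none. All 10 called genes were among the 79, and 12.7% of those were called, beside 14.0% of all genes that pass the same limit.

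Nearest to the threshold stood Cacna2d2, inside it, and Kcnj4, outside it. Kcnj4, a strong inward rectifier, read 10.31 and 10.55 in the controls and 9.84 and 9.95 in Salv CKO, a difference of -0.54 ± 0.12 (limma adjusted p = 0.0534). Its groups did not overlap.

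Inward rectifiers hold the resting potential, and those best known in the heart were near or below background here. Kcnj2, the main pore of the resting current, was above background on 1 array, at 3.08 and 2.60 in the controls and 3.27 and 4.27 in Salv CKO. Kcnj12, its partner, read 4.25 and 5.76 against 4.41 and 4.18, with overlapping groups. Kcnj3 and Kcnj5 form the channel through which acetylcholine slows the heart. Kcnj3 read 3.48 and 5.01 in the controls and 4.64 and 4.18 in Salv CKO, and Kcnj5 was at the floor on all 4 arrays, so it has no measured level and no fold. Kcnj8 and Kcnj11, pores of ATP-sensitive channels, gave 0.49 ± 0.80 (limma adjusted p = 0.754) and -0.50 ± 0.41 (limma adjusted p = 0.503). Abcc9, the sulphonylurea receptor that pairs with them in the heart, fell by 0.82 ± 0.08 on the log2 scale (limma adjusted p = 0.0116). Kcnj14, a bright member of the class, was at 0.05 ± 0.18 (limma adjusted p = 0.898).

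Pacemaker genes gave no call. Hcn4, the main pacemaker pore of the heart, was not above background on any array, at 3.56 and 0.00 in the controls and 3.56 and 1.43 in Salv CKO. Hcn2, which shares that role, read 7.70 and 7.36 in the controls and 7.96 and 8.65 in Salv CKO. Both Salv CKO pools were higher, but the difference of 0.78 ± 0.28 did not pass (limma adjusted p = 0.168). Hcn3 was at 0.44 ± 0.42 (limma adjusted p = 0.571).

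The transient outward and ultrarapid potassium channels of heart muscle were dim. Kcnd2, a pore of the transient outward current, read 5.66 and 5.37 in the controls and 6.83 and 5.99 in Salv CKO, a difference of 0.90 ± 0.39 (limma adjusted p = 0.233). Kcnd3, its relative, was above background on 1 array, and Kcnip2, their accessory subunit, on none. Kcnd1, by contrast, was well measured, at 9.78 and 9.95 against 9.84 and 9.82, and differed by -0.03 ± 0.10 (limma adjusted p = 0.878). Kcna5, the ultrarapid pore of the atrium, read 6.84 and 5.65 in the controls and 5.21 and 4.01 in Salv CKO. Its groups did not overlap, yet the pools of each group were over 1 log2 unit apart, and -1.63 ± 0.62 did not pass (limma adjusted p = 0.182). Kcnip3, a calcium-binding relative of Kcnip2, was lower in both Salv CKO pools (-1.07 ± 0.34) without passing (limma adjusted p = 0.124).

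**Figure D4:**
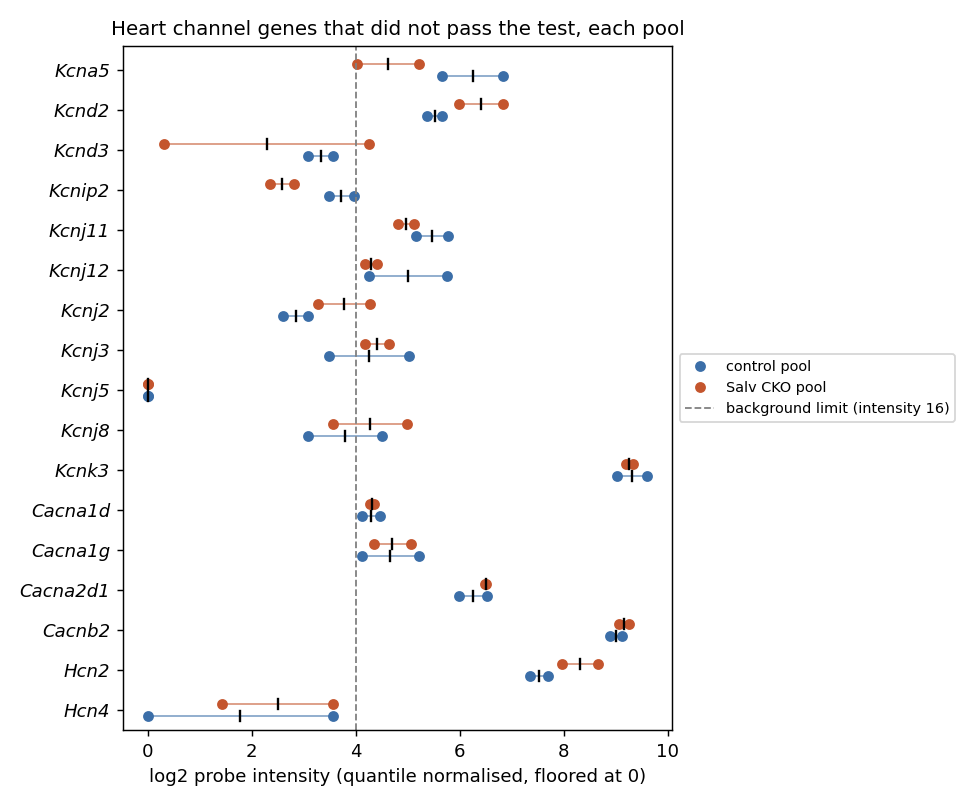
Log2 probe intensity in each pool of the heart channel genes that did not pass the test, ordered by class; blue is control, orange Salv CKO, black ticks are means (n = 2) and the dashed line is the background limit of 16. Kcnk3 and Cacnb2 are well above the limit with overlapping groups, while Hcn4, Kcnip2 and Kcnj5 lie wholly below it.

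Tandem-pore channels carry background potassium current and gave no call. Kcnk3, an acid-sensitive channel of heart muscle, read 9.61 and 9.03 in the controls and 9.20 and 9.32 in Salv CKO, and the Salv CKO pools fell between the controls (-0.06 ± 0.21, limma adjusted p = 0.899). Kcnk1 was at 0.21 ± 0.11 (limma adjusted p = 0.300) and Kcnk13 at 0.14 ± 0.17 (limma adjusted p = 0.662). Among calcium-activated channels, the small-conductance pore Kcnn3 was at -0.30 ± 0.16 (limma adjusted p = 0.321), and Kcnmb4, a beta subunit of the large-conductance channel, was at 0.07 ± 0.11 (limma adjusted p = 0.743).

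Sodium channel genes gave no call among 9 pores and 2 beta subunits. Scn4a, the pore of skeletal muscle, read 8.58 and 8.29 in the controls and 8.94 and 9.01 in Salv CKO, a difference of 0.54 ± 0.15 (limma adjusted p = 0.0879). Scn8a, a neuronal pore also found in heart, was at 0.16 ± 0.17 (limma adjusted p = 0.614) with overlapping groups on its brightest probe. On its other probe, above background on all arrays, both Salv CKO pools were higher. That probe gave 0.37 ± 0.18 and did not pass (limma adjusted p = 0.282 in the fit of all named probes). Scn7a, an atypical sodium channel, was higher in both Salv CKO pools on its brightest probe (1.20 ± 0.36, limma adjusted p = 0.110) and lower on the other (-0.80 ± 0.33). The beta subunits Scn2b and Scn3b were at 0.11 ± 0.25 and -0.39 ± 0.42, with overlapping groups.

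For 4 channel genes, both pools of a group were above background and neither pool of the other was, so the fold is a lower bound set by the background limit. Kcnk7 was at least 1.95-fold and Kcnv2 at least 1.52-fold higher in the controls. Kcns3 was at least 1.38-fold and Kcnj1 at least 1.05-fold higher in Salv CKO. None of these passed the test (limma adjusted p = 0.152 to 0.268), and all were dim.

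Of the 23 channel genes known from the heart that were measured, 6 fell (26.1%, beside 5.70% of all genes) and 0 rose, and 16 were above background on all 4 arrays. The fallen genes were Cacna1h, Cacna1c, Cacna2d2, Kcnq1, Kcne1 and Kcnh2. This list was drawn up with earlier results of these data known, so its direction is not independent evidence.

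Of 33 other genes of excitability measured, 10 fell and 3 rose (39.4%, beside 10.6% of all genes). Their median difference was -0.37, beside -0.04 over all genes. Of the 30 above background on all 4 arrays, 43.3% were called, beside 14.0% of all genes that pass the same limit. This list too was drawn up with earlier results of these data known, so its share of calls is not independent evidence. Calcium store genes were among the fallen genes. Atp2a2, the calcium pump of the reticulum, fell by 0.70 ± 0.11 on the log2 scale (limma adjusted p = 0.0254). Its inhibitor phospholamban (Pln) fell by 1.36 ± 0.18 on the log2 scale (limma adjusted p = 0.0169). Rrad, a small GTPase that restrains L-type channels, fell by 0.77 ± 0.10 and Cav3, the muscle caveolin, by 1.07 ± 0.19 (limma adjusted p = 0.0161 and 0.0320). The connexins went both ways, with Gja1 risen by 0.96 ± 0.06 and Gja5 fallen by 1.36 ± 0.13 on the log2 scale (limma adjusted p = 0.00682 and 0.0110). Shox2, a transcription factor of the pacemaker region, rose by 0.46 ± 0.09 (limma adjusted p = 0.0377), while Tbx3, another, was at -0.03 ± 0.09 (limma adjusted p = 0.887).

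Of the called genes, only Cacng4 and Cacng6 had another channel gene on the arrays as a direct neighbour. In the RefSeq order of protein-coding genes of GRCm38.p6, Cacng4 lies between Cacng1 and Cacng5, and Cacng6 follows Cacng7 and Cacng8. Neither neighbour of Cacng4 was called: Cacng1 was above background on no array, and Cacng5, picked after its value was seen, was above it on 1. Cacng7 was at -0.56 ± 0.41 (limma adjusted p = 0.464) and Cacng8 at -0.40 ± 0.67 (limma adjusted p = 0.757). In all, 16 pairs of channel genes on the arrays were direct neighbours. Cacng4 and Cacng6, the only called genes among them, lie on different chromosomes, so no pair could have both genes called.

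The balance of the calls differed with the scaling of the arrays. Of all calls, 46.3% were higher in Salv CKO after quantile normalisation, 22.3% with arrays centred on their medians, 40.6% with the 75th percentile and 6.88% with values as deposited. The median difference over genes above background was -0.04, -0.17, -0.03 and -0.44 in that order. Channel genes risen and fallen were 3 and 7, 2 and 8, 4 and 8, and 0 and 12. Background shares of called genes for the last 3 scalings were 10.1%, 12.2% and 20.0%. Of channel genes, 4 and 3 were called with floors of 16 and 64 (backgrounds 2.88% and 2.94%), 15 when only genes above 16 on all arrays were tested (background 21.6%), and 5 with the mean of all probes (background 7.34%). The 10 called genes kept their sign under all 4 scalings, but Kcnab1 was at 0.29 and Kcnh1 and Cacng4 at 0.77 and 0.86, none of them called, with values as deposited. Kcnab1 was not called with arrays centred on medians either, and every called gene but Cacna1h, Kcne1 and Kcnq1 lost its call with both floors.

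**Figure D5:**
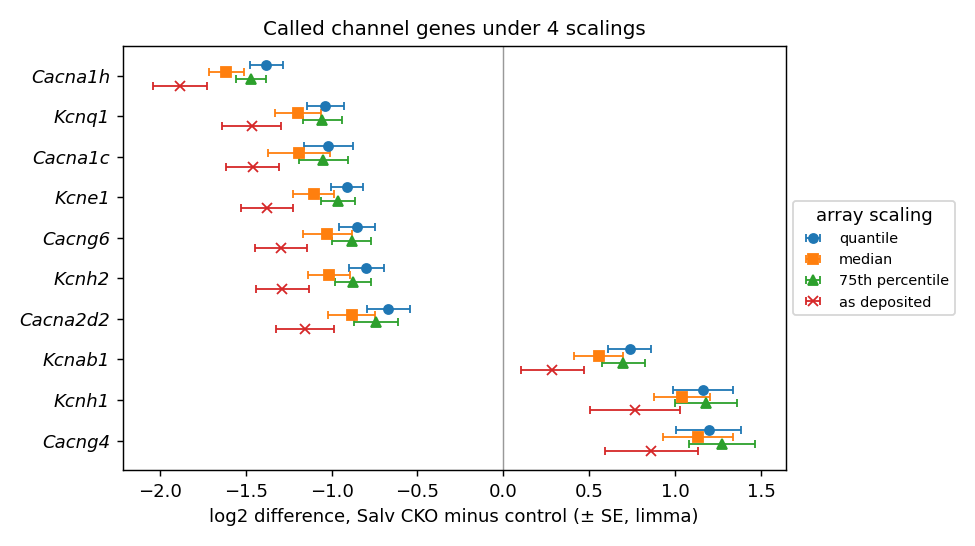
Log2 difference (Salv CKO minus control) with limma's standard error for the 10 called channel genes under 4 array scalings. The fallen genes stay below 0 and the risen genes above it, while values as deposited lie lowest for every gene, from -1.88 for Cacna1h to 0.86 for Cacng4.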

How the data were processed

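Per the labels' protocols, RNA of whole embryonic day 9.5 hearts was column-purified, amplified with amino-allyl nucleotides and coupled to Cy5. The values deposited by the authors are linear probe intensities, with 3.37 to 5.99% below 0; no label names the scanner, background method or software. The 4 columns were quantile normalised, floored at 1 and put on the log2 scale (limma 3.58.1, R 4.3.3). The platform table gave 1 symbol for 21020 of 29922 probes; per gene, the probe with the highest mean over the 4 arrays was used. Of the channel symbols, 113 are official in RefSeq and 1 is a synonym. All 16675 genes were tested with lmFit and eBayes with an intensity trend, two-sided, Benjamini-Hochberg adjusted at 0.05; the procedure was tested on simulated data.

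Members, gene lists and the floor were chosen with earlier results of these data known. Named were all called members, members known from the heart, the 2 brightest per class and members over 16 in 1 group only. Uncalled members over 16 on all arrays were also named where groups did not overlap and their means differed at least 2-fold. Genes outside the channel rule come from the fixed lists; Cacng1, Cacng5, Cacng7 and Cacng8 were named after their values were seen, as neighbours. Marker sums without the brightest genes were added after the values were seen. Probes' intensities are not comparable between genes. The number of arrays limits the precision. Alternatives covered scaling, floor, filter, probe choice, trend, replicate block and leaving out each array.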

Additional observations from a re-analysis of the deposited data

How the results depend on the processing

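Of 656 values of 48 named genes under the alternatives, 44 changed sign, in 17 genes; none of these was a called gene and none was called after the change. All genes gave 1772 calls and channel genes 10; these became 3330 (and 12) as deposited, 481 and 4 with a floor of 16, 491 and 3 with a floor of 64, 2676 (and 15) over genes above 16 on all arrays, and 5 channel genes with the mean of all probes. Without an intensity trend 0 and 0 were called by limma (3578 and 26 at an unadjusted p under 0.05), and with any 1 array left out, whichever of the 4, 0 to 0 and 0 to 0 (3172 to 3438 and 16 to 21). Those losses have fewer arrays or another model of the spread by construction. The mean of all probes ended the calls of Cacna1c, Cacna2d2, Cacng6, Kcne1 and Kcnq1 (limma adjusted p up to 0.630). These were all the called genes with several probes. Cacna1h, Kcnh2, Kcnh1, Kcnab1 and Cacng4, which stayed called, had 1 probe each, so this setting could not change their differences. Only Cacna1h was called under all 9 alternatives that kept every array and the trend. For Cacna1h, with its 1 probe, the mean of all probes was no check. Kcne1 and Kcnq1, with several probes, were called under 8 of the 9 and lost their call under that mean alone. The labels give the groups the same replicate numbers without saying that they pair; with the replicate block 2211 genes and 11 channel genes were called (13.3% of all genes), and same-numbered deviations correlated at 0.170 over 12402 genes.

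Sign changes, of which the cause was not tested, were as follows. As deposited: Cacna1d -0.22, Cacna1g -0.20, Cacnb2 -0.27, Kcnj14 -0.34, Kcnj3 -0.0502, Kcnk1 -0.29, Kcnk13 -0.32, Kcnmb4 -0.41, Scn2b -0.21 and Scn8a -0.29. Centred on medians: Cacnb2 -0.00037, Kcnj14 -0.0738, Kcnk1 -0.0167, Kcnk13 -0.0536, Kcnmb4 -0.14 and Scn8a -0.0207. With the mean of all probes: Kcnd1 0.0157, Kcnj14 -0.0597, Kcnj3 -1.22 and Kcnk13 -0.61. With a floor of 16: Kcnd3 0.13 and Kcnj3 -0.10. With 1 array left out, ranges were -0.14 to 0.18 for Cacna1d, -0.49 to 0.58 for Cacna1g, -0.0363 to 0.55 for Cacna2d1, -1.12 to 2.67 for Hcn4, -0.12 to 0.0547 for Kcnd1, -2.95 to 0.93 for Kcnd3, -1.52 to 0.0343 for Kcnj12, -0.16 to 0.26 for Kcnj14, -0.61 to 0.92 for Kcnj3, -0.24 to 1.21 for Kcnj8, -0.0600 to 0.34 for Kcnk13, -0.35 to 0.23 for Kcnk3, -0.0455 to 0.18 for Kcnmb4, -0.0861 to 0.31 for Scn2b and -0.0557 to 0.37 for Scn8a.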
